A study of Mus musculus with 12 samples.

Results

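The 10 genes described here serve antigen presentation by class I molecules of the major histocompatibility complex (MHC): H2-K1, H2-D1, B2m, Tap1, Tap2, Tapbp, Psmb8, Psmb9, Nlrc5 and Erap1. They were chosen by name and not by a cut on their measured values, though earlier results of these data were known. They were found by Ensembl identifier among the 53707 genes of the gene table. All 10 passed the filter on low counts that left 21061 genes. The RNA came from whole retinas of wild-type C57BL/6J mice aged 28 days, which were dissected free of sclera and retinal pigment epithelium and kept as explants for 48 hours in Neurobasal-A medium. One group had 5 mM glucose and the other 25 mM glucose, and all other culture conditions were shared. Each group had 3 biological replicates with 2 technical replicates each, 12 libraries in all. Batch 1 held the first technical replicate of every biological replicate, and batch 2 the other. The comparison asks which class I genes differ in RNA level between the glucose concentrations. An explant is cut off from the circulation, so cells cannot enter it from the blood during culture. Loss or division of cells over the 48 hours was not measured here.

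Class I molecules show short peptides from inside a cell to CD8 T cells. The proteasome cuts proteins into peptides, the TAP transporter carries them into the endoplasmic reticulum, and they are trimmed and loaded there onto a heavy chain paired with beta-2-microglobulin. Neurons of the normal retina are known for low class I levels, whereas microglia and vascular cells have more, and interferon raises the whole pathway in many cell types.

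The 5 mM libraries held 17998905 to 36692484 estimated counts and the 25 mM libraries 14815285 to 23129541. The label retina held by marker genes: the summed level of 12 rod photoreceptor genes was at least 3036 CPM (counts per 1000000, scaled by TMM factors) in every replicate, and that of 8 retinal pigment epithelium genes at most 19.6. A pair of libraries stood apart. On the first principal component, which held 51.8% of the variance, the first technical replicate of 25 mM replicate 2 lay farthest out at 122, with 15.4% of its counts on mitochondrial genes, above the 5.91% to 11.8% of the other libraries. The second technical replicate of 5 mM replicate 1 lay at 23.9, while the other 5 mM libraries lay between -92.4 and -28.6. The 25 mM libraries other than the outermost ran from -19.0 to 91.7. The value of -19.0 was that of the second technical replicate of 25 mM replicate 3, and the next 25 mM library lay at 17.1. That library was not left out, so the choice of the pair was not the only one these values allow. Values without both libraries of the pair are given beside the main results.

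In mouse, 7 of the 10 genes lie on chromosome 17, within or near the MHC. Tap1 and Psmb9 are transcribed away from each other, and their annotated ends overlap by 212 bases. Psmb8 starts 495 bases after the end of Tap1, and Tap2 starts 2072 bases after the end of Psmb8, so these 4 genes fit in 34.3 kb. Promoter windows of 300 bases, from 250 before to 50 after the start site, were found in RefSeq (build GRCm38.p6) for 8 of the 10 genes and not for Tap2 and Nlrc5. The windows of H2-K1 (chr17:34000298-34000597, minus strand), H2-D1 (chr17:35262844-35263143, plus strand), B2m (chr2:122147437-122147736, plus strand) and Tap1 (chr17:34187306-34187605, plus strand) are shown 5′ to 3′, because they hold the heavy chains, the light chain and the start that Tap1 shares with Psmb9. Capitals mark matches, on either strand, to 4 motifs: GGGGATTCC, which resembles a kappaB site, GAANNGAAA, which resembles an interferon response element, TGACG, which resembles the X2 box, and CCAAT, the core of the Y box, through which Nlrc5 is known to act together with X boxes.
H2-K1: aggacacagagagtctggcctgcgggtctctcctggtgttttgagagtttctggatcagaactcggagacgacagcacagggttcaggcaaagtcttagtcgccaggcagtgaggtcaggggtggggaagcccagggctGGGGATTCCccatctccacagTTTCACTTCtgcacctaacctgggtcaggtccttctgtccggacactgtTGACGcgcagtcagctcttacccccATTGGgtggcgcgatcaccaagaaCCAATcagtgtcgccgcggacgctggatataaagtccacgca
H2-D1: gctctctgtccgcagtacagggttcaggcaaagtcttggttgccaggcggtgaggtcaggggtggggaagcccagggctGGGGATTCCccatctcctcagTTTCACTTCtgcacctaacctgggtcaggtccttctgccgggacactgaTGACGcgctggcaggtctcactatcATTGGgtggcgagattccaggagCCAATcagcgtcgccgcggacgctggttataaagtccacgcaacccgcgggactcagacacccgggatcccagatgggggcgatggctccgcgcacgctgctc
B2m: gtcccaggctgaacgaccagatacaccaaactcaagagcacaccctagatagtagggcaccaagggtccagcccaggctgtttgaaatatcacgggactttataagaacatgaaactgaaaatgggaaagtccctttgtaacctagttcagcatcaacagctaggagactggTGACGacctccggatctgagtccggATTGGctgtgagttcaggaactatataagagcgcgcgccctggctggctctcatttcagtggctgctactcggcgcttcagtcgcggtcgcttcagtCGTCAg
Tap1: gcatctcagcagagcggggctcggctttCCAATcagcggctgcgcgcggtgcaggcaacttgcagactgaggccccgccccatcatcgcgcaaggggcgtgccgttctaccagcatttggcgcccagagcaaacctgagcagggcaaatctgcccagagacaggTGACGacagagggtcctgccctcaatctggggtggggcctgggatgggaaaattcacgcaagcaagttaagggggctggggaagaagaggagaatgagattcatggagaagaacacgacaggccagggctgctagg

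The heavy chain windows were alike, with 211 identical bases among 239 aligned (88.3%), and the motifs came in the same order in both. GGGGATTCC occurred in H2-K1 and H2-D1 among the 8 genes and in 0.252% of 32544 promoter windows. GAANNGAAA, in exactly these letters, occurred in the same 2 genes and in 7.57% of all windows. A near form with an added A before the gap was not searched for. It stands in the B2m window as gaaactgaaa and in the Erap1 window, on the other strand, as tttcactttc. The count for GAANNGAAA thus does not show that the other genes lack an element of this kind. TGACG occurred in 5 of 8 genes against 20.9%, and CCAAT in 6 of 8 against 37.4%. TGACG followed after 15 to 25 bases by ATTGG, the reverse complement of CCAAT, uses matches already counted. It occurred in H2-K1, H2-D1 and B2m, each time with 20 bases between, and in 0.439% of all windows. The windows of Tap1 and Psmb9 share 275 bases, so that their TGACG and CCAAT matches are the same. These matches are descriptions of letters and were not tested as binding sites.

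The log2 fold changes of the class I genes, 25 mM over 5 mM glucose, had both signs. Tap1 and Nlrc5 had higher values in every 25 mM replicate than in any 5 mM replicate, B2m had lower values, and the replicates of the other 7 genes overlapped. By the edgeR quasi-likelihood test, 0 of 10 genes had an FDR (Benjamini-Hochberg adjusted p over all 21061 genes) under 0.05, where 1.98% of all genes did and 1.47% did with a higher level at 25 mM. Where the FDR had to be under 0.01 with more than a 2-fold change, called genes made up 0% of those tested. The lowest FDR of any gene was 0.0217, and limma-voom also gave 0 genes with an FDR under 0.01, while DESeq2 gave 1634. At an unadjusted p under 0.05 there were 2 of 10, Tap1 and Nlrc5, against 28.7% of all genes. DESeq2 called the same 2 genes at an FDR under 0.05, with 16.6% of all genes, and limma-voom called 0 of 10, with 1.98% of all genes. Replicates lay apart with a higher level at 25 mM in 2 of 10 genes, against 16.0% of all genes, and with a lower level in 1 of 10, against 15.8%. The log2 fold changes ran from -0.88 to 1.06 with a median of -0.35, next to -0.01 over all genes tested. Without the libraries that stood apart, 0 of 10 were called and the median was -0.32. The median was -0.17 without 25 mM replicate 1, -0.59 in batch 1 alone and 0.01 in batch 2 alone.

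**Figure D1:**
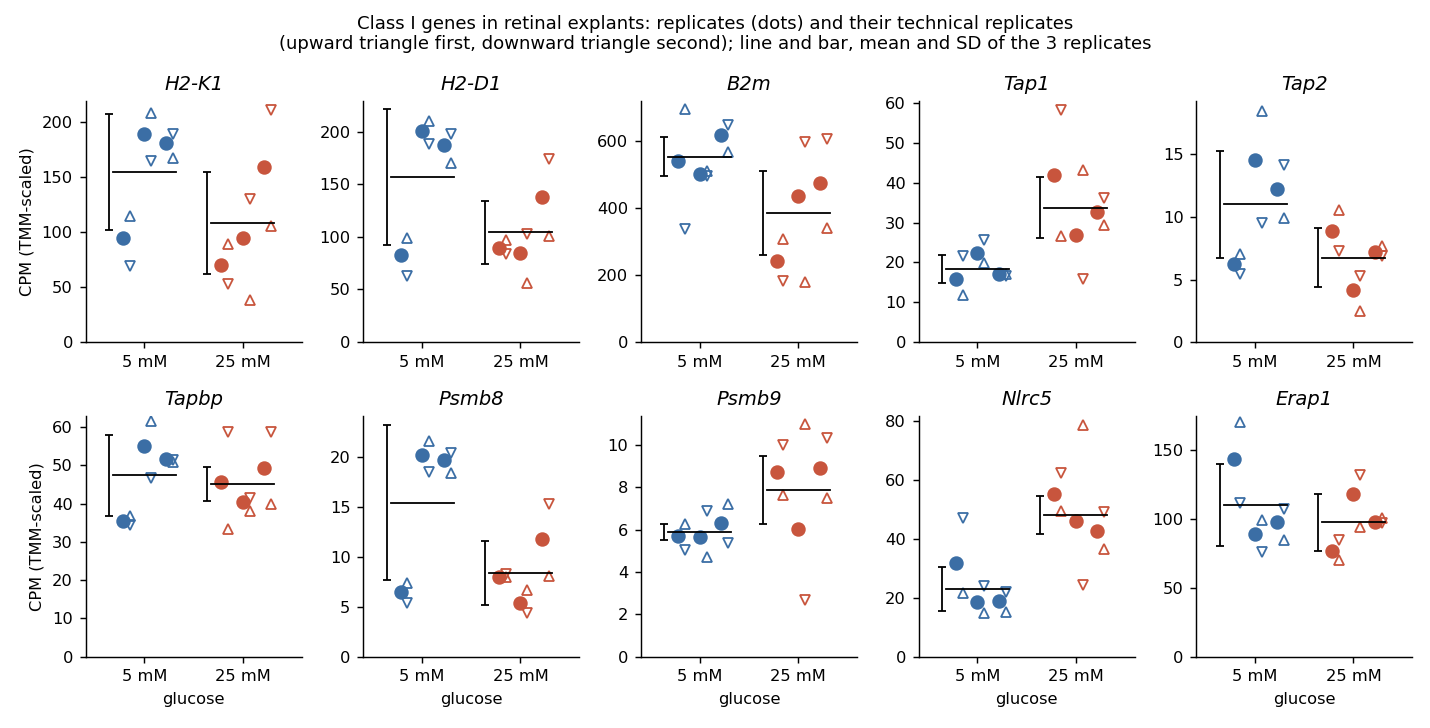
Level of each class I gene in CPM on a linear axis from 0 at 5 mM and 25 mM glucose, with dots for the 3 biological replicates, triangles for their technical replicates, and a line and bar for mean and SD. Tap1 and Nlrc5 sit higher and B2m lower in all 3 replicates at 25 mM, and 5 mM replicate 1 (leftmost dot) sits well under the other 5 mM replicates in H2-K1, H2-D1, Tap2, Tapbp and Psmb8.

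H2-K1 and H2-D1 encode the classical heavy chains, which bind the peptide. H2-K1 (ENSMUSG00000061232) measured 94.2, 189 and 181 CPM in the 5 mM replicates and 70.3, 94.7 and 159 CPM in the 25 mM replicates. Its log2 fold change was -0.52 (SE 0.35, 95% interval -1.33 to 0.30, edgeR FDR 0.354). With 1 replicate left out it ran from -0.91 (without 25 mM replicate 3) to -0.28 (without 25 mM replicate 1). H2-D1 (ENSMUSG00000073411) measured 82.6, 200.3 and 187 CPM at 5 mM and 89.8, 84.6 and 138 CPM at 25 mM. Both heavy chains thus had 2 high replicates and 1 low replicate at 5 mM, and the groups overlapped through that low one. The log2 fold change of H2-D1 was -0.59 (SE 0.34, 95% interval -1.38 to 0.20, edgeR FDR 0.284). Without 5 mM replicate 1 it was -0.90 with an edgeR FDR of 0.0270, whereas without 5 mM replicate 2 it was -0.38 with an FDR of 0.592. No other replicate left out gave H2-D1 an FDR under 0.05. Of the 101-base windows of their annotated transcripts, 0.905% for H2-K1 and 3.55% for H2-D1 also occur in another class I gene, so a small part of their reads could have been divided among near-identical copies.

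B2m (ENSMUSG00000060802) encodes the light chain shared by nearly all class I molecules and had the highest level of the 10 genes. It measured 539, 502 and 616 CPM at 5 mM and 242, 435 and 476 CPM at 25 mM. All 25 mM values lay under all 5 mM values, with the lowest in 25 mM replicate 1. The log2 fold change was -0.52 (SE 0.26, 95% interval -1.13 to 0.08, edgeR FDR 0.225), and it was -0.46 without the libraries that stood apart (FDR 0.429). Without 25 mM replicate 1 alone it was -0.27 (FDR 0.422). The log2 ratio of the heavy chains together to B2m was -0.91 ± 0.64 (SD, n = 3) at 5 mM and -0.85 ± 0.37 at 25 mM. This difference of 0.06 was not larger than the spread (exact permutation test, two-sided, p = 0.8, where 3 against 3 cannot go under 0.1), and it was 0.06 without the libraries that stood apart as well.

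Tap1 and Tap2 encode the paired subunits of the peptide transporter. Tap1 (ENSMUSG00000037321) measured 15.7, 22.3 and 17.1 CPM at 5 mM and 42.0, 26.8 and 32.6 CPM at 25 mM. The groups did not overlap. The log2 fold change of Tap1 was 0.88 (SE 0.24, 95% interval 0.34 to 1.42, edgeR FDR 0.0736). It was 0.83 (FDR 0.231) without the libraries that stood apart, and DESeq2 gave 0.87 with an FDR of 0.0129. Tap2 (ENSMUSG00000024339) measured 6.27, 14.6 and 12.2 CPM at 5 mM and 8.86, 4.19 and 7.17 CPM at 25 mM. It overlapped between the groups and had a log2 fold change of the opposite sign, -0.71 (SE 0.39, 95% interval -1.61 to 0.19, edgeR FDR 0.263), which was -0.45 without 25 mM replicate 2. Tapbp (ENSMUSG00000024308) encodes tapasin, which holds the empty heavy chain at the transporter. It measured 35.3, 55.0 and 51.7 CPM at 5 mM and 45.5, 40.4 and 49.3 CPM at 25 mM, with a log2 fold change of -0.07 (SE 0.21, 95% interval -0.55 to 0.41, edgeR FDR 0.841). The 3 genes of this transport step thus had a positive value, a negative value and a value near 0.

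Psmb8 and Psmb9 encode catalytic subunits that replace Psmb5 and Psmb6 in the immunoproteasome. Psmb8 (ENSMUSG00000024338) measured 6.47, 20.2 and 19.6 CPM at 5 mM and 8.02, 5.34 and 11.8 CPM at 25 mM. As with the heavy chains, 5 mM replicate 1 was low and made the groups overlap. The log2 fold change of Psmb8 was -0.88 (SE 0.46, 95% interval -1.94 to 0.18, edgeR FDR 0.242), and without 5 mM replicate 1 it was -1.25 with an edgeR FDR of 0.0283. With any other replicate left out Psmb8 was not called, and the value nearest 0 was -0.63 without 25 mM replicate 2 (FDR 0.533). Psmb9 (ENSMUSG00000096727) measured 5.69, 5.63 and 6.32 CPM at 5 mM and 8.69, 6.02 and 8.89 CPM at 25 mM. The groups overlapped through 25 mM replicate 2, and the log2 fold change was 0.42 (SE 0.26, 95% interval -0.17 to 1.01, edgeR FDR 0.303). It was 0.16 without the libraries that stood apart (FDR 0.848).

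Set against its constitutive partner in the same replicate, Psmb9 stood higher at 25 mM by counts over the whole gene, whose transcript classes are given below. The log2 ratio of Psmb9 to Psmb6 was -3.27, -4.36 and -4.01 at 5 mM and -2.78, -3.11 and -2.94 at 25 mM, so the groups did not overlap. The difference was 0.94 (exact permutation test, two-sided, p = 0.1, the smallest that 3 against 3 allows, and 0.4 after Benjamini-Hochberg adjustment over 4 ratios). Psmb6 itself had a log2 fold change of -0.60 (edgeR FDR 0.188) and Psmb5 of -1.01 (edgeR FDR 0.144), and of the 3 constitutive partners 0 were called by edgeR, DESeq2 or limma-voom and 1 was lower at an unadjusted p under 0.05. Without the libraries that stood apart, the ratio of Psmb9 to Psmb6 overlapped between the groups and its difference was 0.48 (exact permutation p = 0.4). It also overlapped within each batch, with a difference of 0.91 in batch 1 and 0.90 in batch 2 (exact permutation p = 0.3 in both). The log2 ratio of Psmb8 to Psmb5 was -1.56 ± 0.12 (SD, n = 3) at 5 mM and -1.46 ± 0.22 at 25 mM (difference 0.10, exact permutation p = 0.6), and without the libraries that stood apart the difference was -0.06 (exact permutation p = 1.0). Psmb10, the third inducible subunit, measured 3.18, 10.8 and 8.98 CPM at 5 mM and 4.38, 3.50 and 4.93 CPM at 25 mM. Its log2 ratio to Psmb7 differed by -0.47 (exact permutation p = 0.5). This difference was -0.11 in batch 1 alone, -0.80 in batch 2 alone and -0.67 without the libraries that stood apart. With 1 replicate left out it ran from -1.04 (without 5 mM replicate 1) to -0.09 (without 5 mM replicate 2).

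Erap1 (ENSMUSG00000021583, chromosome 13) encodes the aminopeptidase that trims peptides in the endoplasmic reticulum. It measured 144, 89.0 and 97.7 CPM at 5 mM and 76.9, 118 and 97.6 CPM at 25 mM. Here 5 mM replicate 1 was the highest value of all and the groups overlapped, with a log2 fold change of -0.18 (SE 0.24, 95% interval -0.72 to 0.37, edgeR FDR 0.645) that was 0.06 without that replicate. Its exons share 11.5% of their bases with those of Cast on the other strand, and such overlaps covered 24.9% of the exon bases of Tapbp (with Gm19412), 14.7% of Psmb8 (with Gm20496) and 14.1% of Tap2 (with Gm15821). The use of strand in counting is not given in the sources used here, so reads of overlapping antisense genes may not have been told apart.

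Nlrc5 (ENSMUSG00000074151, chromosome 8) encodes the transactivator of class I genes and had the largest log2 fold change of the 10. It measured 31.7, 18.6 and 18.9 CPM at 5 mM and 55.1, 46.1 and 42.7 CPM at 25 mM. All 25 mM values lay above all 5 mM values. The log2 fold change was 1.06 (SE 0.25, 95% interval 0.48 to 1.63, edgeR FDR 0.0637). DESeq2 gave 1.05 with an FDR of 0.00497, and without the libraries that stood apart edgeR gave 1.05 with an FDR of 0.0998. Of its known targets, the heavy chains and B2m had negative and Tap1 and Psmb9 positive log2 fold changes, and none of these had an edgeR FDR under 0.05.

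Per length, B2m had the highest level. At 5 mM the mean level per kb of exon was 642 CPM for B2m, 60.8 for H2-D1 and 52.7 for H2-K1, whose replicate ranges overlapped. Erap1 (15.1) and Tapbp (13.1) followed and overlapped each other, and the remaining 5 genes had between 1.61 and 4.56 CPM per kb. Psmb9 had the lowest mean at 5 mM. Its replicates lay apart from those of Nlrc5, the next above it, but its highest (1.73) passed the lowest of Tap2 (1.66). At 25 mM the first 5 kept this order, while Tap1 (6.18 CPM per kb) and Nlrc5 (5.65) stood next, overlapping each other and, in Nlrc5, apart from Psmb8 (2.48). With TPM values, which scale for transcript length, from the transcript table, 5 of the 10 genes kept their rank at 5 mM, and H2-K1 came before H2-D1. On this scale the gap below B2m was smaller, with means at 5 mM of 1206 TPM for B2m, 351 for H2-K1 and 280.5 for H2-D1.

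**Figure D2:**
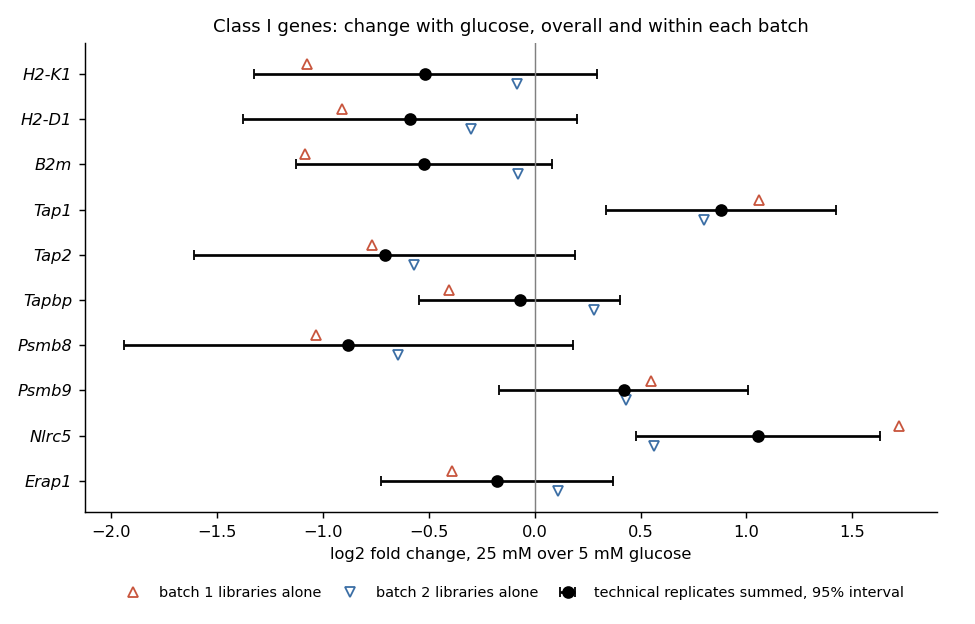
Log2 fold change of each class I gene, 25 mM over 5 mM glucose, with the 95% interval from the summed technical replicates (black) and the values from batch 1 (upward triangles) and batch 2 (downward triangles) alone. The intervals of Tap1 and Nlrc5 lie above 0 before adjustment over all genes, and each batch 1 value is farther from 0 than its batch 2 value.

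The differences were larger in batch 1. In all 10 genes the log2 fold change was farther from 0 in batch 1 than in batch 2, and in 8 of 10 the sign was the same. Tapbp went from -0.40 in batch 1 to 0.28 in batch 2, and Erap1 from -0.39 to 0.11. In batch 1 alone, Nlrc5 had a log2 fold change of 1.72 (edgeR FDR 0.0150), Tap1 of 1.06 (0.0491) and B2m of -1.09 (0.0280). In batch 2 alone the values were 0.56 for Nlrc5 (FDR 0.556), 0.80 for Tap1 (0.466) and -0.08 for B2m (0.944). The difference between batches was not tested.

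Technical replicates of one biological replicate could differ as much as the conditions did. In 7 of 10 genes the largest gap between technical replicates was in 25 mM replicate 2, whose first library stood apart. There, Nlrc5 measured 78.5 CPM in the first and 24.3 CPM in the second technical replicate. Tap1 measured 43.3 and 15.7 CPM, and Psmb9 10.96 and 2.70 CPM. B2m went the other way with 180.0 and 596 CPM, and H2-K1 with 38.2 and 130.5 CPM. Within this single replicate, the first library had 15.4% mitochondrial counts and its partner 10.2%. The genes with positive log2 fold changes were higher in the first library, and B2m, the heavy chains, Tap2, Tapbp and Erap1 lower. Psmb8, whose log2 fold change was negative, was also higher in the first library (6.71 against 4.36 CPM). At 5 mM, replicate 1 was the lowest of the 3 replicates in 6 of the 10 genes and the highest in 2. Without both libraries that stood apart, all 10 log2 fold changes kept their sign and ran from -0.95 (Psmb8) to 1.05 (Nlrc5).

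The transcript table divided these differences by transcript class. It was summed per gene over coding transcripts, over transcripts annotated as retaining an intron, and over the rest, after the values per gene had been seen. These are estimated counts, divided among annotated transcripts that overlap. The libraries were made from total RNA, and the sums do not tell processed transcripts with an intron from unspliced RNA. Coding transcripts of Tap1 measured 8.07, 14.8 and 12.7 CPM at 5 mM and 16.7, 6.65 and 13.8 CPM at 25 mM. Their log2 fold change was 0.07 (SE 0.38). Retained-intron transcripts of Tap1 measured 8.43, 5.79 and 5.27 CPM at 5 mM and 26.4, 22.2 and 18.8 CPM at 25 mM. These groups lay far apart, with a log2 fold change of 1.79 (SE 0.26, edgeR FDR 0.0544 over 33227 sums). Retained-intron transcripts made up 36.1% of the retained-intron and coding counts of Tap1 at 5 mM and 65.3% at 25 mM.

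Psmb9 showed the same split. Its retained-intron transcripts measured 1.27, 2.20 and 2.22 CPM at 5 mM and 5.93, 3.77 and 4.50 CPM at 25 mM, with a log2 fold change of 1.32 (SE 0.33, edgeR FDR 0.0961). Its coding transcripts measured 1.52, 2.34 and 2.50 CPM at 5 mM and 2.14, 1.73 and 1.85 CPM at 25 mM, with a log2 fold change of -0.15 (SE 0.30). The retained-intron share was 47.1% at 5 mM and 71.0% at 25 mM. The log2 ratio of retained-intron to coding transcripts lay apart between the groups in Tap1 (difference 1.80) and Psmb9 (1.45) among the 9 class I genes with both classes. Each had an exact permutation p = 0.1, two-sided, which is the smallest possible and 0.45 after Benjamini-Hochberg adjustment. Over all 7007 genes in which both classes passed the filter, the ratio lay apart and higher at 25 mM in 33.8%, with a median difference of 0.54, and 2 of the 8 class I genes among them did so. The class I genes thus held no larger share of such ratios than genes in general. Without the libraries that stood apart the ratios also lay apart, with differences of 1.65 in Tap1 and 2.02 in Psmb9. They lay apart within each batch, except for Tap1 in batch 2, where the difference was 1.35. None of the 3 retained-intron transcripts of Psmb9 reaches the 212 bases in which the genes overlap, and those of Tap1 reach at most 37 bases into it.

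Nlrc5 differed from both, since its coding transcripts were higher at 25 mM. They measured 17.1, 21.3 and 21.4 CPM at 5 mM and 41.4, 34.5 and 29.6 CPM at 25 mM, with no overlap and a log2 fold change of 0.82 (SE 0.20, edgeR FDR 0.0964). Most of this was Nlrc5-207, the transcript of 7578 bases, with 15.0 to 20.01 CPM at 5 mM and 26.2 to 39.0 CPM at 25 mM. The retained-intron transcripts of Nlrc5 overlapped between the groups. In B2m, which had coding transcripts only among the classes tested, the values lay apart and lower, with a log2 fold change of -0.54 (SE 0.28, FDR 0.255). Retained-intron transcripts made up 84.5% of the retained-intron and coding counts of Tap2 at 5 mM and 83.8% at 25 mM. Its log2 fold change was -1.06 (SE 0.47) in retained-intron and -0.70 (SE 0.67) in coding transcripts, and the replicates of each of these classes overlapped. Over all genes, the median log2 fold change was 0.26 in retained-intron sums, 67.1% of them above 0, and -0.23 in coding sums. The replicates of retained-intron sums lay apart and higher at 25 mM in 24.8% of 7353 genes, and those of coding sums in 8.35% of 15517. Of the transcript sums, 0% had an FDR under 0.05, and the lowest FDR was 0.0508.

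**Figure D3:**
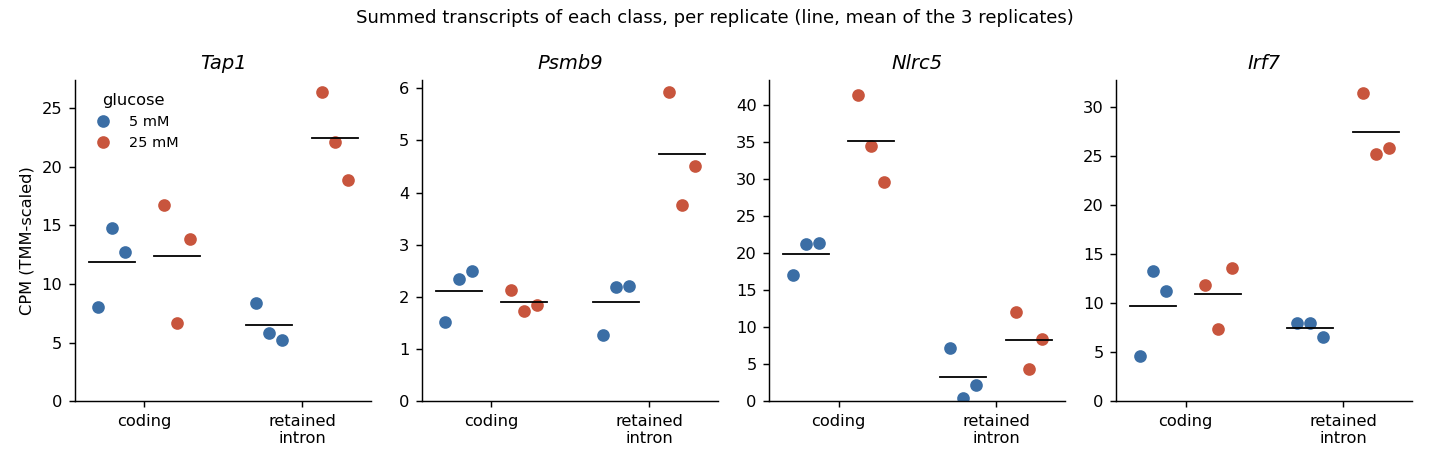
Summed CPM of coding and of retained-intron transcripts at 5 mM and 25 mM glucose on linear axes from 0, with dots for the 3 replicates and a line for their mean. In Tap1, Psmb9 and Irf7 the conditions lie apart for retained-intron transcripts and overlap for coding transcripts, while in Nlrc5 the coding transcripts lie apart.

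Among the signal and transcription factors of class I genes, 2 of 22 tested rose and 0 fell by the edgeR test, and the median log2 fold change was -0.29. At an unadjusted p under 0.05, 3 were higher and 6 lower, DESeq2 called 2 higher and 3 lower, and limma-voom 1 higher and 0 lower. Over all genes tested, in either direction, the background of these counts and of those of the lists below was 1.98% by edgeR, 28.7% at an unadjusted p under 0.05, 16.6% by DESeq2 and 1.98% by limma-voom. The 5 of 22 by DESeq2 thus lay near the background. The median of the list was -0.51 in batch 1 alone and 0.00 in batch 2 alone. The 2 were Stat2 and Irf9, which act downstream of the type I interferon receptor. Stat2 measured 52.2, 66.1 and 61.8 CPM at 5 mM and 158, 115 and 99.1 CPM at 25 mM, and it rose by 1.04 on the log2 scale (SE 0.21, edgeR FDR 0.0498). Irf9 measured 81.8, 72.8 and 75.2 CPM at 5 mM and 162, 144 and 123 CPM at 25 mM, and it rose by 0.90 (SE 0.16, edgeR FDR 0.0426). In contrast to Tap1, the coding transcripts of both lay apart and higher, with log2 fold changes of 1.01 in Stat2 and 0.86 in Irf9. Without the libraries that stood apart, the edgeR FDR was 0.173 for Stat2 and 0.0838 for Irf9, so neither was called. By edgeR 0 genes of any kind were called when 5 mM replicate 2 or 3 or 25 mM replicate 1 or 2 was left out. Ifngr2, a chain of the interferon gamma receptor, measured 41.3, 41.9 and 45.7 CPM at 5 mM and 18.5, 27.1 and 28.7 CPM at 25 mM (log2 fold change -0.80, edgeR FDR 0.0728). The type I interferon receptor chains also had negative values, Ifnar1 of -0.69 (FDR 0.0732) and Ifnar2 of -0.73 (0.133). The kinase Jak1 had -0.63 (0.0734). All of these lay apart and lower at 25 mM. Of the 22 genes, replicates lay apart and lower in 5 and higher in 4, against 15.8% and 16.0% of all genes. Irf1 had a log2 fold change of -0.54 (FDR 0.164), Irf2 of -0.10 (0.769) and Rfx5, a subunit of the factor at the X box, of 0.23 (0.513). The RNA of interferon gamma itself (Ifng) did not pass the filter.

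Of 17 interferon-induced genes outside the class I pathway, 2 rose and 0 fell by the edgeR test, with a median of 0.20. The median was 0.03 without the libraries that stood apart, -0.01 in batch 1 alone and 0.56 in batch 2 alone. At an unadjusted p under 0.05, 6 were higher and 1 lower, DESeq2 called 3 higher and 1 lower, and limma-voom 2 higher and 0 lower. Irf7, a factor that amplifies interferon production, measured 19.9, 17.7 and 16.2 CPM at 5 mM and 55.7, 51.2 and 49.3 CPM at 25 mM. It rose by 1.54 on the log2 scale (SE 0.17, edgeR FDR 0.0217), and its FDR was 0.0561 without the libraries that stood apart. As in Tap1, this lay mostly in retained-intron transcripts, with a log2 fold change of 1.87 (SE 0.21) against 0.18 (SE 0.42) in coding transcripts, though the remaining classes also had 1.87 (SE 0.37). Ifit3, which binds foreign RNA as part of a complex, rose by 1.24 (SE 0.24, edgeR FDR 0.0456). Of the 17 genes, 0 were called without the libraries that stood apart. Igtp, a GTPase, had a log2 fold change of 0.84 (FDR 0.0504), and Oas1a one of -1.03 (FDR 0.121). Interferon-induced genes thus held values of both signs, with 10 positive and 7 negative by edgeR and 9 positive by DESeq2.

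Other genes of the class I pathway mostly had the sign of the heavy chains but did not pass the test. Of 17 other class I chains, 4 had positive and 13 negative log2 fold changes, with a median of -0.41, which was -0.68 in batch 1 alone and -0.23 in batch 2 alone. None had an edgeR FDR under 0.05, against 2 higher and 4 lower at an unadjusted p under 0.05, 3 lower by DESeq2 and 0 by limma-voom. H2-M3, which presents formylated peptides, measured 6.27, 10.3 and 9.87 CPM at 5 mM and 2.74, 3.61 and 5.34 CPM at 25 mM (log2 fold change -1.17, edgeR FDR 0.0815). The lipid-presenting Cd1d1 also had -1.17 (FDR 0.0671), Fcgrt, the neonatal antibody receptor, -1.39 (0.103) and H2-T23 -0.53 (0.365). H2-T24 had 0.80 (0.135).

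Of 14 other genes of peptide supply and loading, 2 had positive and 12 negative values, with a median of -0.37, which was -0.57 in batch 1 alone and -0.05 in batch 2 alone. By edgeR 0 had an FDR under 0.05, with 3 lower at an unadjusted p under 0.05, 1 by DESeq2 and 0 by limma-voom. Calreticulin (Calr), a chaperone of the loading complex, measured 797, 742 and 747 CPM at 5 mM and 352, 511 and 581 CPM at 25 mM. Its values lay apart, with a log2 fold change of -0.66 (SE 0.22, edgeR FDR 0.103). The disulfide isomerases Pdia6 and Pdia3 had log2 fold changes of -0.57 (FDR 0.0908) and -0.51 (0.265), and Canx, which folds the new heavy chain, had -0.28 (0.490). Psme1 and Psme2, the proteasome activator subunits, had -0.46 (FDR 0.168) and -0.27 (0.321), and Tapbpl, a relative of tapasin, had -0.46 (0.311).

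Of 10 genes listed as class I receptors, which include signal chains and related receptors, 4 passed the filter on low counts and 1 fell. This was Cd247, a signal chain of T and NK cell receptors, at 0.560, 0.520 and 0.851 CPM in the 5 mM replicates and 0.162, 0.109 and 0.158 CPM in the 25 mM replicates (log2 fold change -2.13, SE 0.41, edgeR FDR 0.0463). DESeq2 called 3 of the 4 as lower and limma-voom 0, and edgeR called 0 without the libraries that stood apart. Pirb, an inhibitory receptor of myeloid cells and neurons, had the highest level of the receptors, with 11.3, 23.7 and 25.5 CPM at 5 mM and 2.16, 5.34 and 7.91 CPM at 25 mM. Its log2 fold change was -1.97 (FDR 0.0688) and that of Cd8a 0.87 (0.101). Of 8 class II presentation genes tested, 0 had an edgeR FDR under 0.05, with 2 lower at an unadjusted p under 0.05, 1 lower by DESeq2 and 0 by limma-voom. Their summed level was between 6.52 and 11.1 CPM at 5 mM and between 4.96 and 6.17 CPM at 25 mM. Cd74 measured 1.14, 2.81 and 2.77 CPM at 5 mM and 0.325, 0.493 and 0.972 CPM at 25 mM (log2 fold change -1.89, edgeR FDR 0.0736). H2-Ab1 had -0.16 (FDR 0.818) and Ciita, the transactivator of class II genes and a relative of Nlrc5, -0.31 (FDR 0.759).

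**Figure D4:**
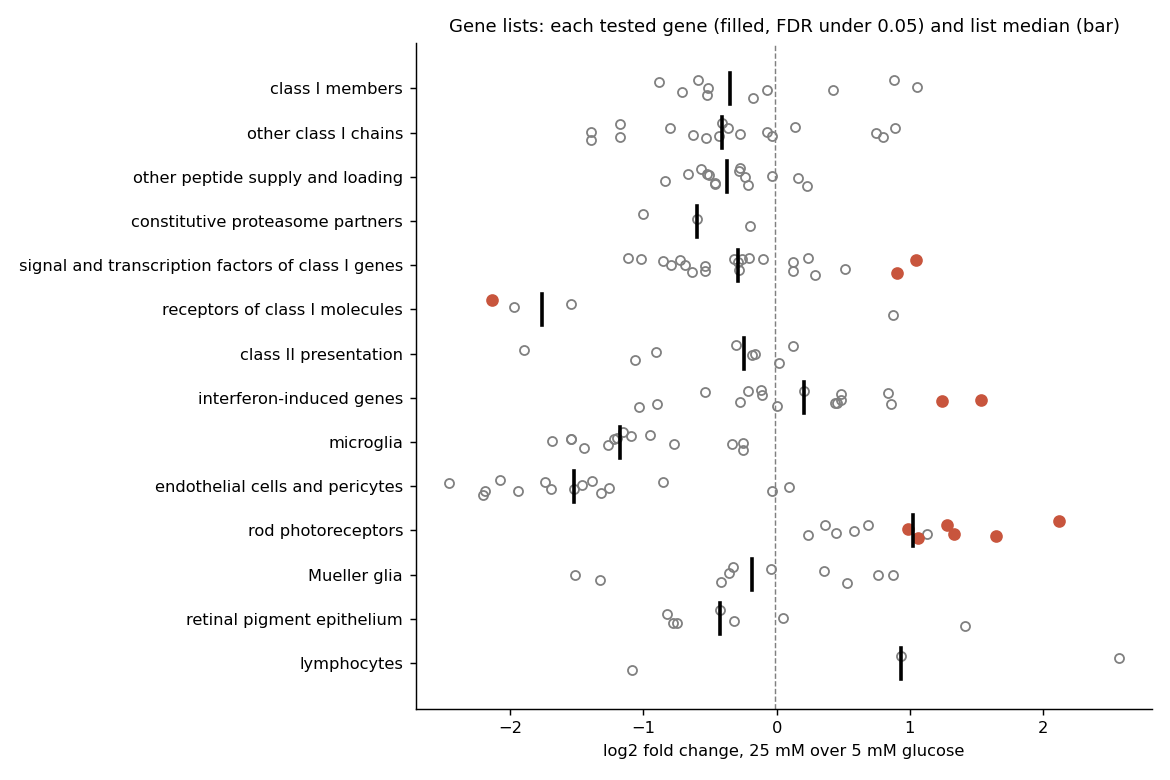
Log2 fold change, 25 mM over 5 mM glucose, of each tested gene in 14 lists, filled where the FDR was under 0.05, with a bar for the list median and a dashed line for the median of all genes tested (-0.01). Called genes lie in the lists of signal and transcription factors, interferon-induced genes, receptors and rod photoreceptors, and the microglia and vascular lists lie almost wholly under 0.

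Markers of microglia and of vascular cells mostly had negative log2 fold changes, but 0 passed the edgeR test. In these bulk samples, fewer cells of a type and less RNA per cell cannot be told apart. All 14 microglia markers had negative log2 fold changes, with a median of -1.17, and their summed level was between 261 and 460.2 CPM at 5 mM and between 104 and 255 CPM at 25 mM. By edgeR 0 of them had an FDR under 0.05, with 10 lower at an unadjusted p under 0.05, 7 by DESeq2 and 0 by limma-voom. Trem2, a lipid receptor of microglia, measured 9.90, 29.5 and 24.4 CPM at 5 mM and 4.15, 5.47 and 10.2 CPM at 25 mM (log2 fold change -1.68, edgeR FDR 0.0776). Of 15 endothelial cell and pericyte markers 14 had negative values, with a median of -1.52 and sums of 1581 to 2658 CPM at 5 mM and 687 to 1384 CPM at 25 mM. By edgeR 0 of these passed, with 13 lower at an unadjusted p under 0.05, 12 by DESeq2 and 0 by limma-voom. The medians lay nearer 0 in batch 2, at -0.68 over the microglia markers and -0.66 over the vascular markers, against -1.55 and -2.47 in batch 1. Pecam1, an adhesion molecule of endothelial cells, had a log2 fold change of -1.94 (FDR 0.0732).

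Rod markers went the other way. Of 12 tested, 6 rose and 0 fell by the edgeR test, with a median of 1.02, and their sum was between 3036 and 5830 CPM at 5 mM and between 6578 and 9159 CPM at 25 mM. The phosphodiesterase subunit Pde6b rose by 1.65 on the log2 scale (edgeR FDR 0.0217), the channel subunit Cnga1 by 2.12 (0.0261), and the rod transcription factors Nrl by 1.33 (0.0261) and Nr2e3 by 0.99 (0.0305). DESeq2 called 7 of 12 and limma-voom 6. Without the libraries that stood apart, 0 of 12 were called and the median was 0.85. Of 10 Mueller glia markers 0 passed by edgeR, with 2 higher and 3 lower at an unadjusted p under 0.05, 2 by DESeq2 and 0 by limma-voom, and the lowest value was Vim at -1.51 (FDR 0.0555). The summed level of 7 lymphocyte markers reached 3.13 CPM at 5 mM and, at 25 mM, 4.84 CPM, while Cd79a, Nkg7, Gzma and Trbc2 did not pass the filter. By edgeR 0 of the other 3 passed, with 2 higher at an unadjusted p under 0.05, 1 higher by DESeq2 and 0 by limma-voom. The sum of the retinal pigment epithelium markers was between 17.5 and 19.6 CPM at 5 mM and between 11.2 and 15.0 CPM at 25 mM. By edgeR 0 of the 7 tested passed, with 1 higher and 1 lower both at an unadjusted p under 0.05 and by DESeq2, and 0 by limma-voom. The part of these cell types in the levels of B2m, the heavy chains, Tap1 and Nlrc5 was not tested.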

How the data were processed

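RNA-seq of 12 libraries (3 biological replicates at each of 2 glucose concentrations, 2 technical replicates each) was analysed, and groups came from the sample labels. Libraries were made from total RNA with a stranded low-input kit and sequenced as read pairs. The authors deposited estimated counts (expected counts) per gene and per transcript, not scaled between libraries. The genome build was GRCm38 per the submitters' processing notes, and the counting tool, its annotation and its use of strand are not given in the sources used here. Symbols and positions came from GENCODE M21, which named 48714 of 53707 genes (90.7%). Of the table columns, 0 were left unused. Other experiments of the study were not analysed here, and a few genes of the lists are not reported here and were left out of the list counts and sums.

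Technical replicates were summed and rounded to whole numbers, since the values are expected counts, filtered with filterByExpr and scaled by TMM. The groups were compared by the quasi-likelihood test of edgeR 4.0.16 as in its version 3 (R 4.3.3), with Benjamini-Hochberg adjustment over 21061 genes and without a replicate block, and the procedure was tested on simulated data. What a technical replicate was, and whether biological replicates were separate animals or cultures, is not given in the sources used here, so p-values measure only the spread between these samples. Intervals of 95% use the test's degrees of freedom. Ratios carry a pseudocount of 0.5. Library totals limit counting error only. Promoter sequences came from RefSeq, and alignment used Biopython 1.88. Tables and plots were made with Python 3.11.15, pandas 2.3.3, scipy 1.17.1 and matplotlib 3.10.9.

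The 10 genes and all lists were chosen with earlier results of these data known. Named genes were the 10, up to 4 genes of lowest p from each other list, and a fixed set of pathway genes. Ifnar2 and Jak1 were added to stand beside Ifnar1. Other genes were not searched for a like pattern. Alternatives were RLE factors, library totals, DESeq2 1.42.0, limma-voom (limma 3.58.1), the quasi-likelihood method of edgeR version 4, 2 other filters, 12 libraries with a batch term, each batch alone, a replicate block, transcript counts summed per gene, and each replicate left out. Chosen after seeing the data were the fit and ratios without 2 libraries, the sums per transcript class and the ratio of retained-intron to coding transcripts.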

Additional observations from a re-analysis of the deposited data

Results flagged for a closer look

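Over the 10 class I genes and 2 glucose concentrations, 20 groups of 6 libraries were searched by Dixon's test for a library far from the others. In all, 2 were found, where chance gives about 1 in 20 groups of independent values. The libraries of a group include technical replicates, and all genes share the same 12 libraries, so this rate is a guide only. Psmb8 measured 15.3 CPM in the second technical replicate of 25 mM replicate 3, above the other 25 mM libraries, whose median with it was 8.06 CPM. Nlrc5 measured 46.9 CPM in the second technical replicate of 5 mM replicate 1, which is one of the libraries that stood apart, while the median of the 5 mM libraries was 21.8 CPM.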

How the results depend on the processing

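Of the 10 genes, 8 kept their sign under all 19 alternatives. Tapbp (-0.07) had 0.28 in batch 2 alone, and without 1 replicate from -0.25 (5 mM replicate 1) to 0.040 (5 mM replicate 2), also above 0 without 25 mM replicate 2 (0.012), and Erap1 (-0.18) had 0.11 in batch 2 alone, and without 1 replicate from -0.32 (25 mM replicate 2) to 0.062 (5 mM replicate 1). All genes with an FDR under 0.05 numbered 417, but 3489 by DESeq2, 1979 with no filter on low counts, 2918 with 12 libraries and a batch term, 3279 in batch 1 alone, 0 in batch 2 alone, and 2 without the libraries that stood apart. The class I genes called numbered 0, but 2 by DESeq2, 1 with no filter, 2 with 12 libraries and 3 in batch 1 alone. The fit of 12 libraries took technical replicates as independent samples. Its counts of called genes are thus not evidence from 12 separate samples. With a replicate block, 990 genes were called and 1 class I gene, Nlrc5 (FDR 0.0407). Deviations from the group mean correlated at -0.01, -0.45 and 0.28 between same-numbered replicates. Between replicates of unlike number they correlated at -0.42 to 0.51. Such deviations cancel out within a group of 3, so these values cannot decide whether replicates were paired. Leaving out each replicate gave 0 to 5845 genes and 0 to 4 class I genes. The highest came without 5 mM replicate 1 (H2-D1, Tap1, Psmb8 and Nlrc5), and 0 genes were called without 5 mM replicate 2 or 3 or 25 mM replicate 1 or 2. The median log2 fold change of the class I genes was 0.014 in batch 2 alone. The log2 ratio of Psmb8 to Psmb5 differed by -0.15 in batch 1 alone and by -0.059 without the libraries that stood apart, and that of heavy chains to B2m, with 1 replicate left out, by -0.30 (5 mM replicate 1) to 0.32 (5 mM replicate 2), and by -0.07 without 25 mM replicate 1 and by -0.03 without 25 mM replicate 3. The cause of these changes was not tested. Over the alternatives the FDR of Tap1 ran from 0.0129 to 0.466 and that of Nlrc5 from 0.00497 to 0.556. The lowest count of any of the 10 genes in a replicate was 153 (Tap2, 25 mM replicate 2), so counting error was small beside the spread between replicates.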
